A study of Saccharomyces cerevisiae with 6 samples.

Results

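The genes described here encode the soluble factors of cytosolic translation in the yeast Saccharomyces cerevisiae, those that start, carry on and end protein synthesis on the ribosome. They were taken by gene name from the platform's annotation of the array, 38 of 5365 named genes, of which 25 act in initiation, 10 in elongation and 3 in termination or recycling. Each had 1 feature on the array, and all 38 had a value in each of the 3 hybridisations, so that no member was lost to a filter. Strain S288C was grown in YPD, a rich glucose medium, at 25 °C to an optical density of 1. Tetrachloroethylene, a chlorinated solvent, was then added at a final 3.3 mM for 2 h. On each array of 2 colours, Cy5 marked cDNA of treated cells and Cy3 that of cells taken just before the addition. The labels name 3 independent biological samples. Each gave 1 array, which was scanned with the laser at high and again at low power. The 2 scans were averaged, so n is 3. No untreated culture at 2 h was used here and the dyes were not exchanged, so elapsed time and dye cannot be told apart from treatment. The values are ratios and hold no level, so the strain could not be checked by markers.

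Values are read as log2 ratios of treated over untreated cells, and a negative value stands for less messenger RNA in treated cells. Because the authors' LOWESS step centres each array, a change in total messenger RNA per cell would not be seen. The labels give no base and no direction. Both follow GEO's convention and the dyes, and every sign and fold below rests on that reading. Errors are SD over hybridisations. "Fell" and "rose" are kept for genes with an adjusted p under 0.05 by limma, fitted over 5349 genes with Benjamini-Hochberg adjustment.

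In the cell, initiation factors bring the cap of the messenger, the initiator tRNA and the small ribosomal subunit together and find the start codon. Elongation factors then deliver aminoacyl-tRNAs, move the ribosome by a codon at a time and, in fungi, clear spent tRNA from the exit site. Release factors recognise stop codons, and an iron-sulphur ATPase splits the subunits apart for another round. In growing yeast, messengers of this machinery are abundant, and their supply is known to follow growth rate together with ribosome synthesis.

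Translation factor messengers lay mostly below their level before treatment. Of 38 genes, 10 fell, or 26.3%, where 11.9% of all 5349 genes fell, and 0 rose by limma, where 9.14% of all genes rose. Calls in either direction made up 21% of all genes. At an unadjusted p under 0.05, where 38.6% of all genes lay, 18 members were lower and 1, SUI1, was higher, 19 in all. The genes that fell were RLI1, GCD6, EFT2, TIF3, TEF4, RPG1, PRT1, TIF4631, SUP35 and GCD1. A negative mean was found for 30 of 38 genes (78.9%, against 51.8% of all genes tested), and 25 (65.8%) were negative on all 3 arrays, against 31.3% of all genes. The median over the 38 genes was -0.56, -0.43 and -0.34 in hybridisations 1, 2 and 3, where the median over all genes tested was -0.08, -0.02 and -0.01. The shift is thus seen on each array, but most factors had mean ratios under 2-fold, and 4 reached that size (RLI1, GCD6, EFT2 and TIF3).

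**Figure D1:**
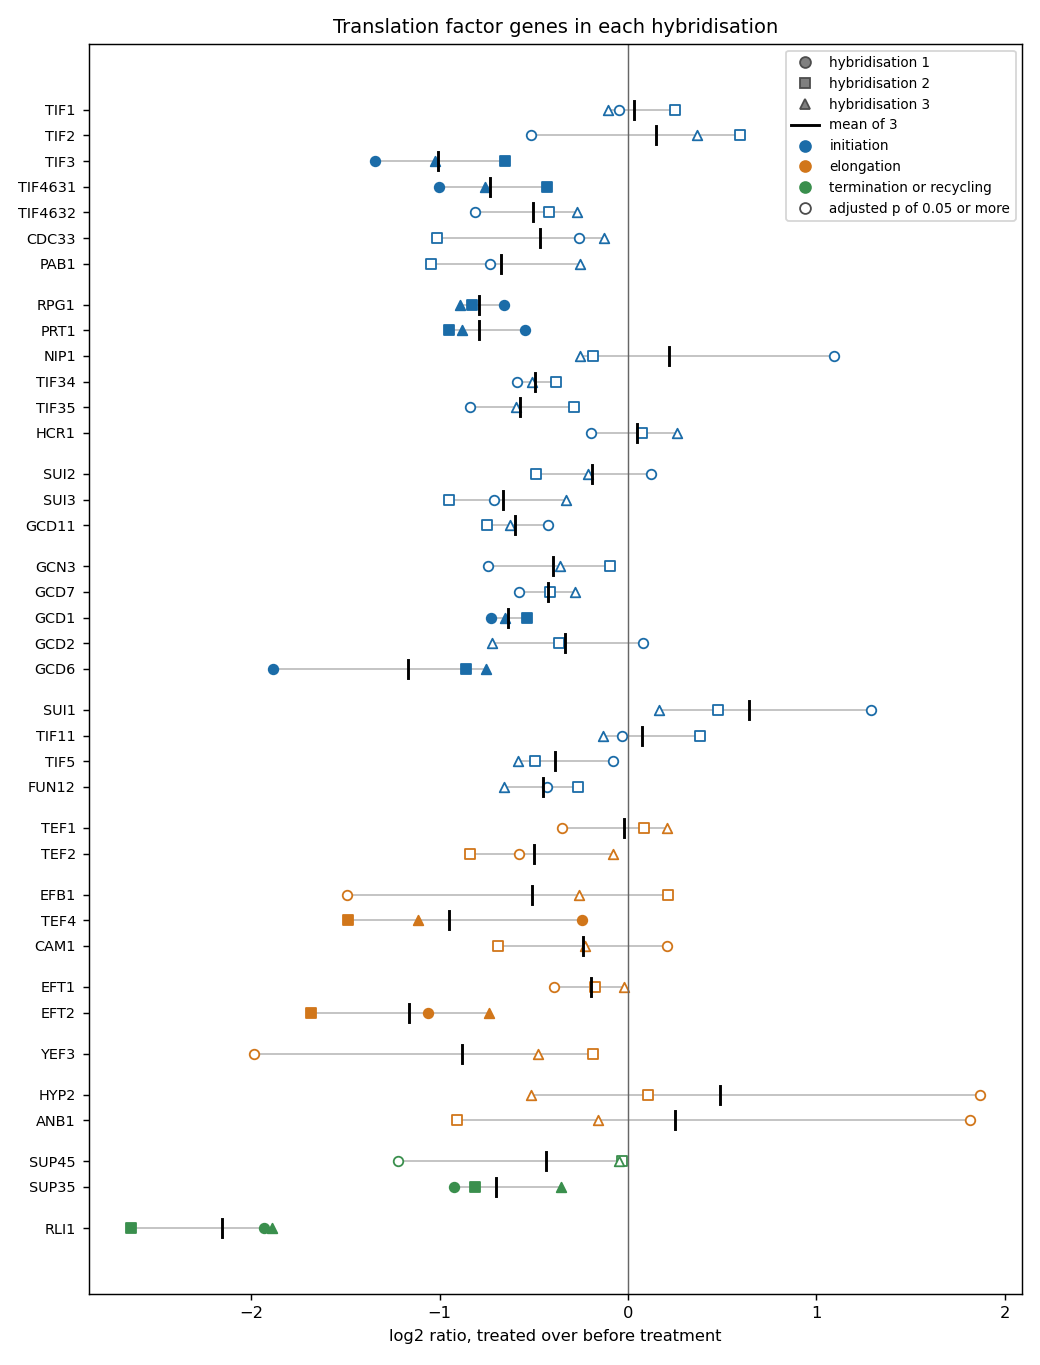
Log2 ratio of treated over untreated cells (x axis) for each of the 38 genes (y axis), in each hybridisation (symbols) with the mean (black bar), grouped by complex and coloured by role. Filled symbols mark the 10 genes with an adjusted p under 0.05, and RLI1, between -2.64 and -1.89, was the lowest of the 38 in hybridisations 2 and 3, while YEF3 (-1.98) was the lowest in hybridisation 1.

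The number of calls depended on single arrays. Without hybridisation 1, 22 of 38 members fell and 1 (TIF2) rose, where 21.9% of all genes fell and 1111 of 5349 rose. Without hybridisation 2, 4 fell, namely TIF3, GCD6, YEF3 and RLI1, where 7.35% of all genes fell. Without hybridisation 3, 0 fell by limma, although 12 members had an unadjusted p under 0.05 and the median of the member means was -0.57. That last setting left 0 lower and 1 higher among all 5349 genes, so it ends every call described below for a gene that fell. The genes of other lists said below to have risen lost their calls there too. In the fit without hybridisation 1, the adjusted p by limma followed the mean almost alone. TEF2 (SD 0.54) and FUN12 (SD 0.28), both at a mean of -0.46, had 0.0372 and 0.0366. A pass in that fit therefore does not show that the remaining arrays had similar ratios.

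Among the factors that bind the cap and unwind the messenger, TIF3 and TIF4631 fell. TIF3, the yeast eIF4B, which stimulates the helicase eIF4A, had log2 ratios of -1.35, -0.65 and -1.02 in hybridisations 1, 2 and 3. Its mean was -1.01 ± 0.35 (n = 3), or 2.01-fold lower (adjusted p = 0.0205 by limma). All 3 arrays lay below 0, with hybridisation 1 the lowest. TIF4631, the scaffold eIF4G1 that joins the cap-binding protein to the helicase, had -1.005, -0.43 and -0.76, a mean of -0.73 ± 0.29, or 1.66-fold lower (adjusted p = 0.0431). Its paralogue TIF4632, eIF4G2, had -0.81, -0.42 and -0.27, also below 0 on each array, and did not pass (-0.50 ± 0.28, adjusted p = 0.108). With only the low power scans used, TIF4631 lost its call (adjusted p = 0.0579), as it did with a minimum fold of 1.2 (0.132), without hybridisation 2 (0.0801) and without hybridisation 3 (0.210). TIF3 lost its call without hybridisation 3 (0.128). Neither gene was measured with high power scans only, with features read in all 6 scans, or without the low power scan of hybridisation 2.

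The genes of eIF4A, the helicase itself, lay near 0. TIF1 had ratios of -0.05, 0.25 and -0.10 and TIF2 had -0.52, 0.60 and 0.37. Both straddled 0 and neither passed (means of 0.03 ± 0.19 and 0.15 ± 0.59). Without hybridisation 1, TIF2 had a mean of 0.48 and passed as higher (adjusted p = 0.0285). The cap-binding protein eIF4E, CDC33, had -0.26, -1.02 and -0.13, so that its mean of -0.47 ± 0.48 rested on hybridisation 2. PAB1, the poly(A)-binding protein, which contacts eIF4G, had -0.73, -1.04 and -0.25 (-0.68 ± 0.40, adjusted p = 0.0653). Without hybridisation 1 both CDC33 (adjusted p = 0.00823) and PAB1 (0.00239) passed. PAB1 also passed with low power scans only (0.0450), after scaling between arrays (0.0487), after centring of ID blocks (0.0419) and with hybridisation as a random block (0.0334). The random block fit entered all 6 scans, so the 2 scans of an array counted as separate, correlated values. Its passes, here and below, rest on the same 3 biological samples.

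Of the 6 genes of eIF3, the large scaffold on the small subunit, 2 fell, those of the core subunits a and b. RPG1, subunit a, had -0.66, -0.83 and -0.89, a mean of -0.79 ± 0.12, or 1.73-fold lower (adjusted p = 0.0262). PRT1, subunit b, had -0.54, -0.95 and -0.88, a mean of -0.79 ± 0.22 and also 1.73-fold lower (adjusted p = 0.0301). Both were below -0.5 on each array, and the SD over arrays, taken on averaged scans, was small. The 2 scans of an array differed by more than that SD, by up to 0.39 for RPG1 and 0.503 for PRT1. TIF34, subunit i, and TIF35, subunit g, were negative on all 3 arrays without passing (-0.49 ± 0.10 and -0.57 ± 0.28). NIP1, subunit c, which is held in the same core, had 1.10 in hybridisation 1 and -0.19 and -0.26 in the others (mean 0.22 ± 0.76). Both scans of hybridisation 1 gave NIP1 a positive value, 1.04 at high and 1.15 at low power. HCR1, subunit j, a loosely bound protein that also takes part in termination and recycling, had -0.20, 0.07 and 0.26 (0.05 ± 0.23).

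The 2 eIF3 calls were lost without hybridisation 2 (adjusted p = 0.128 for RPG1 and 0.171 for PRT1), without hybridisation 3 (0.179 and 0.187) and with a minimum fold of 1.2 (0.0812 and 0.0927). That of RPG1 also ended with low power scans only (0.0728) and that of PRT1 after centring of ID blocks (0.215). Without hybridisation 1, TIF34 (0.0443) and TIF35 (0.0473) passed, and TIF35 passed with hybridisation as a random block (0.0420).

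The factor eIF2 carries the initiator tRNA, and none of its 3 genes passed by limma, although 2 had an unadjusted p under 0.05. SUI3, the beta subunit, had -0.71, -0.95 and -0.33 (-0.66 ± 0.31, adjusted p = 0.0582). GCD11, the GTP-binding gamma subunit, had -0.42, -0.75 and -0.63 (-0.60 ± 0.16, adjusted p = 0.0594). These lay just outside the threshold and were negative on every array. They passed after scaling between arrays (adjusted p = 0.0421 and 0.0431), after quantile normalisation (0.0433 and 0.0465), with hybridisation as a random block (0.0278 and 0.0385) and without hybridisation 1 (0.00275 and 0.00121). SUI2, the alpha subunit that the kinase Gcn2 phosphorylates under stress, had 0.12, -0.49 and -0.21 (-0.19 ± 0.30, adjusted p = 0.509).

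Within eIF2B, which reloads eIF2 with GTP, the genes of the catalytic subcomplex, GCD6 and GCD1, fell. GCD6, the catalytic epsilon subunit, had -1.89, -0.86 and -0.76, a mean of -1.17 ± 0.62, or 2.25-fold lower (adjusted p = 0.0258). Hybridisation 1 was far below the other arrays, which still agreed on a mean of -0.81. GCD1, the gamma subunit, had -0.73, -0.54 and -0.65, the narrowest spread among the 38 genes (-0.64 ± 0.10, 1.56-fold lower, adjusted p = 0.0471). Its scans of hybridisation 2 lay further apart, at -0.74 at high and -0.33 at low power. The 3 genes of the regulatory subcomplex, GCN3, GCD7 and GCD2, had means of -0.40 ± 0.33, -0.43 ± 0.15 and -0.34 ± 0.40 and did not pass, and the difference between the subcomplexes was not tested. GCD2 was 0.08 in hybridisation 1 and passed without it (-0.54, adjusted p = 0.0122). The call for GCD6 ended after centring of ID blocks (0.0680), with a minimum fold of 1.2 (0.0566) and without hybridisation 3 (0.0929). That for GCD1 ended with low power scans only (0.133), after centring each array on its median (0.0516) or centring of ID blocks (0.0809), with a minimum fold of 1.2 (0.165), and without hybridisation 2 (0.187) or 3 (0.233). GCD6 was not measured with low power scans only or with features read in all 6 scans.

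The 4 genes of start codon recognition and subunit joining all stayed short of the threshold by limma, with 1 lower and 1 higher at an unadjusted p under 0.05. SUI1, or eIF1, which guards the accuracy of start codon choice, had 1.29, 0.48 and 0.16. It was the sole member above 0 on all 3 arrays, with a mean of 0.64 ± 0.58 (adjusted p = 0.110). SUI1 passed as higher with hybridisation as a random block (0.0422), the fit that enters the scans of an array separately. TIF11, or eIF1A, its partner on the small subunit, had -0.03, 0.38 and -0.13. TIF5, the GTPase-activating factor eIF5, had -0.08, -0.50 and -0.58, and FUN12, the joining GTPase eIF5B, had -0.43, -0.27 and -0.66. Both were below 0 on each array (-0.39 ± 0.27 and -0.45 ± 0.20) and passed without hybridisation 1 (adjusted p = 0.0132 and 0.0366).

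**Figure D2:**
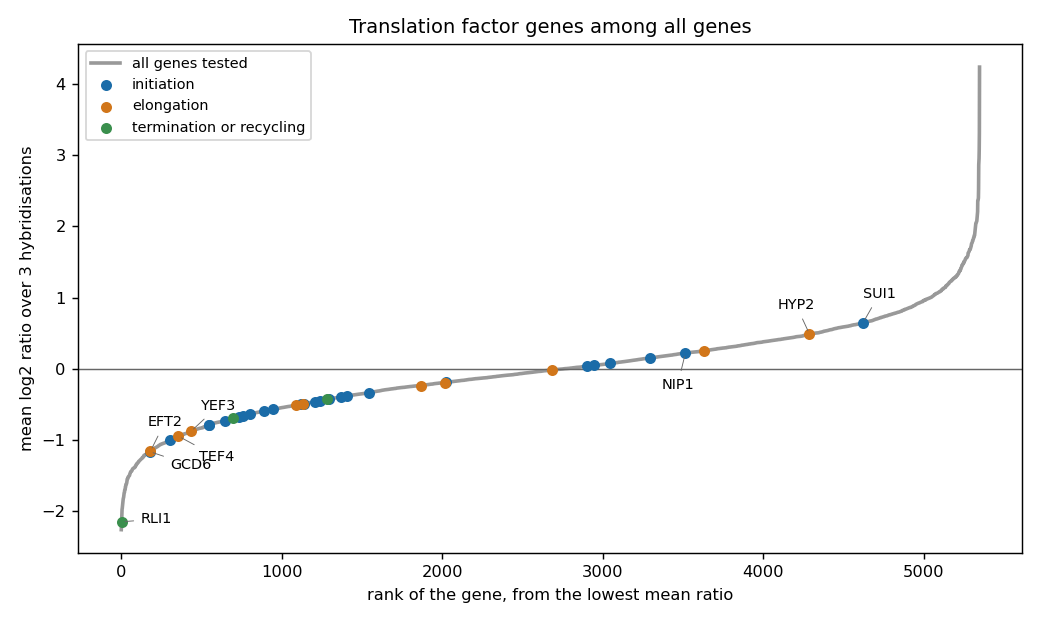
Mean log2 ratio over 3 hybridisations (y axis) of all 5349 genes ranked from the lowest (x axis, grey line), with the 38 translation factor genes as points coloured by role. RLI1 is at rank 3, most factors lie on the left below 0, and SUI1 at rank 4623 is the highest of them.

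Of the 3 roles, elongation factors showed the widest spread between arrays. The median SD of a gene was 0.56 for the 10 elongation genes and 0.28 for the 25 initiation genes. It was 0.42 for termination or recycling, 0.49 for 121 cytosolic ribosomal protein genes and 0.33 for all genes tested. EFT2 and TEF4 fell, and 0 rose by limma, also at an unadjusted p under 0.05. EFT2, a gene of eEF2, the translocase that moves the ribosome, had -1.06, -1.69 and -0.74, a mean of -1.16 ± 0.48, or 2.24-fold lower (adjusted p = 0.0193). TEF4, a gene of the gamma subunit of the exchange factor eEF1B, had -0.25, -1.49 and -1.12, a mean of -0.95 ± 0.64, or 1.93-fold lower (adjusted p = 0.0476). EFT2 was below -0.7 on each array, while TEF4 was near 0 in hybridisation 1. The call for EFT2 ended without hybridisation 2 (0.0736) and without hybridisation 3 (0.0793). That for TEF4 ended without hybridisation 2 (0.202) or 3 (0.211), with scan pairs within 0.5 (0.0559), after centring each array on its median (0.0563) or centring of ID blocks (0.213), and with a minimum fold of 1.2 (0.114).

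The other elongation genes did not pass. YEF3, the fungal ATPase eEF3, had -1.98, -0.19 and -0.48. All 3 were negative, but the mean of -0.88 ± 0.96 rested on hybridisation 1 and was -0.33 without it (adjusted p = 0.112 over all 3 arrays). YEF3 passed with low power scans only (0.0345) and without hybridisation 2 (0.0178). EFB1, the catalytic subunit of eEF1B, had -1.49, 0.21 and -0.26, again low in hybridisation 1 only (-0.51 ± 0.88). TEF1 and TEF2, which encode the same protein, the tRNA carrier eEF1A, had means of -0.02 ± 0.29 and -0.50 ± 0.38. Without hybridisation 1, TEF2 passed at a mean of -0.46 (adjusted p = 0.0372).

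The eIF5A genes HYP2 and ANB1 encode a hypusine-containing protein that helps the ribosome through difficult peptide bonds. HYP2 is the form used in air and ANB1 the form used in low oxygen. HYP2 had 1.87, 0.11 and -0.51 and ANB1 had 1.82, -0.91 and -0.16. In hybridisation 1 they were the 2 highest of the 38 genes, and on the other arrays their ratios ranged from -0.91 to 0.11. Their means of 0.49 ± 1.24 and 0.25 ± 1.41 therefore describe no array, and neither passed. Without hybridisation 1, ANB1 turned to -0.53 and passed as lower (adjusted p = 0.0146). Of 13 measured hypoxic and Rox1-repressed genes, CYC7 (1.68 ± 0.72), an isoform of cytochrome c, rose (7.69%, where 9.14% of all genes rose) and 0 fell by limma (1 lower and 4 higher at an unadjusted p under 0.05). CYC7 lost its call without hybridisation 3 (adjusted p = 0.0753). Leaving out hybridisation 1 gave 2 higher and 2 lower, and leaving out hybridisation 2 gave 2 higher and 1 lower. COX5B (1.202 ± 0.97), OLE1 (-0.95 ± 1.11) and ROX1 (0.65 ± 0.52) did not pass. Over the 13 genes the median of the means was 0.17, against -0.02 for all genes.

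**Figure D3:**
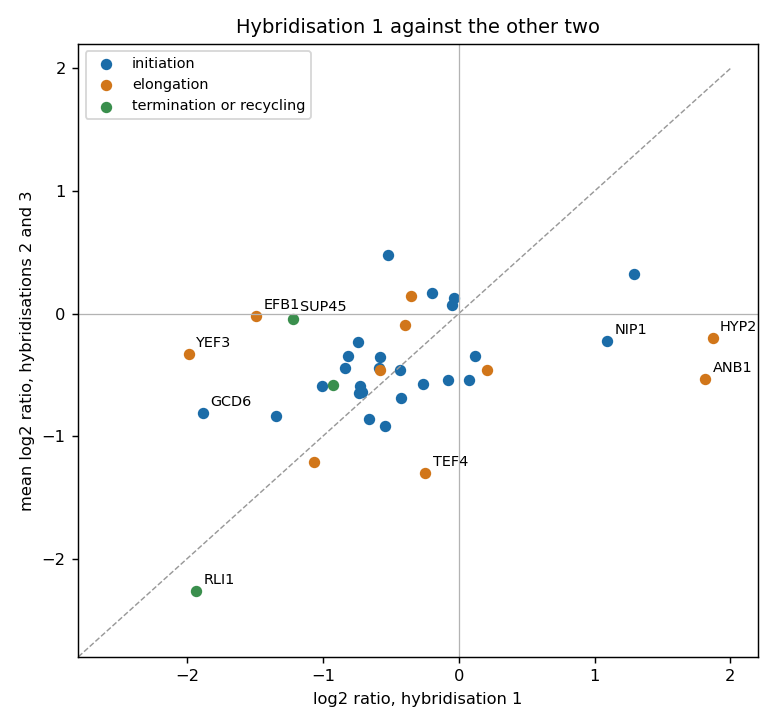
Log2 ratio in hybridisation 1 (x axis) against the mean of hybridisations 2 and 3 (y axis) for the 38 genes, with the line of equality dashed. HYP2, ANB1, NIP1 and TEF4 lie to the right of the line and YEF3, EFB1, SUP45 and GCD6 to the left, each by more than 1, while RLI1 is low on both axes.

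Release and recycling factors were led by RLI1. RLI1, the iron-sulphur ATPase that splits ribosomal subunits after termination and is needed for their export from the nucleus, had -1.93, -2.64 and -1.89. Its mean of -2.15 ± 0.42, or 4.45-fold lower (adjusted p = 0.00749), was the third lowest of all 5349 genes. The next lowest member, GCD6, was at rank 178. SUP35, the GTPase eRF3, had -0.93, -0.81 and -0.36, a mean of -0.70 ± 0.30, or 1.62-fold lower (adjusted p = 0.0497). SUP45, the stop codon reader eRF1 that works with it, had -1.22 in hybridisation 1 and -0.03 and -0.05 in the others, and did not pass (-0.43 ± 0.68, adjusted p = 0.289). All 3 genes were thus negative on every array, and RLI1 was below the other 2 on each.

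The call for RLI1 ended without hybridisation 3 (adjusted p = 0.0659, mean -2.29). It was kept without hybridisation 1, without hybridisation 2 and with a minimum fold of 1.2 (0.0113). RLI1 lacked the high power value of hybridisation 2, and its scans of hybridisation 3 differed by 0.64, so it was not measured with high power scans only or with scan pairs within 0.5. SUP35 lay at the threshold. Its call was lost with high power scans only (0.0519), low power scans only (0.0504), scan pairs within 0.5 (0.0514), centring of each array on its median (0.0525), centring of ID blocks (0.105), a minimum fold of 1.2 (0.156), and without hybridisation 2 (0.228) or 3 (0.138).

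Initiation and elongation genes had similar medians, and those of termination and recycling were lower on average. The median over initiation genes was -0.54, -0.42 and -0.36 in hybridisations 1, 2 and 3 (-0.44 ± 0.09), and that over elongation genes was -0.37, -0.44 and -0.24 (-0.35 ± 0.10). Initiation minus elongation was -0.17, 0.02 and -0.12 (-0.09 ± 0.10), so the sign was not the same on all arrays and the mean difference was smaller than its SD. The median of the 3 termination and recycling genes was -1.22, -0.81 and -0.36 (-0.80 ± 0.43). Initiation minus termination and recycling was 0.68, 0.39 and -0.00326 (0.36 ± 0.34), and elongation minus termination and recycling was 0.85, 0.37 and 0.11 (0.45 ± 0.37). By count, 6 of 25 initiation genes fell (24%), 2 of 10 elongation genes (20%) and 2 of 3 termination or recycling genes (66.7%). Of all genes tested, 11.9% fell. No test was made of these medians and counts, since the genes were picked with earlier results known.

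Pairs of related genes were compared within each array. The 6 pairs were tested with a two-sided exact sign-flip permutation test, for which 3 arrays allow no p below 0.25, so none could pass. EFT1 and EFT2 encode the same eEF2 protein, and EFT1 minus EFT2 was 0.67, 1.51 and 0.72 (0.97 ± 0.47, exact permutation p = 0.25, adjusted p = 0.375 over the 6 pairs). EFT2 was read at low power only, and EFT1 in hybridisation 1 at high power only, so this difference mixes scan powers. At low power alone, EFT1 had -0.58 and -0.12 in hybridisations 2 and 3, where EFT2 had -1.69 and -0.74. EFT1 had -0.39, -0.17 and -0.02 and did not pass. TEF4 was below its paralogue CAM1 on each array, by -0.45, -0.80 and -0.89 (-0.71 ± 0.23, exact permutation p = 0.25). CAM1 itself had 0.21, -0.69 and -0.23, and passed without hybridisation 1 (-0.46, adjusted p = 0.0376).

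TEF1 was above TEF2 on each array, by 0.23, 0.92 and 0.29 (0.48 ± 0.39), and TIF4631 was below TIF4632 by -0.19, -0.01 and -0.49 (-0.23 ± 0.24). The exact permutation p was 0.25 in each case. For TIF1 minus TIF2 (0.47, -0.34 and -0.47) and HYP2 minus ANB1 (0.05, 1.01 and -0.35) the sign changed between arrays (exact permutation p = 0.75 each). Scan powers are also mixed for TIF1 and TIF2 in hybridisation 1, and for TIF4631 and TIF4632 in hybridisations 1 and 2. Genes this alike can hybridise to the same probe, so the values of TIF1 and TIF2, TEF1 and TEF2, EFT1 and EFT2, and HYP2 and ANB1 cannot be assigned to each copy with certainty.

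**Figure D4:**
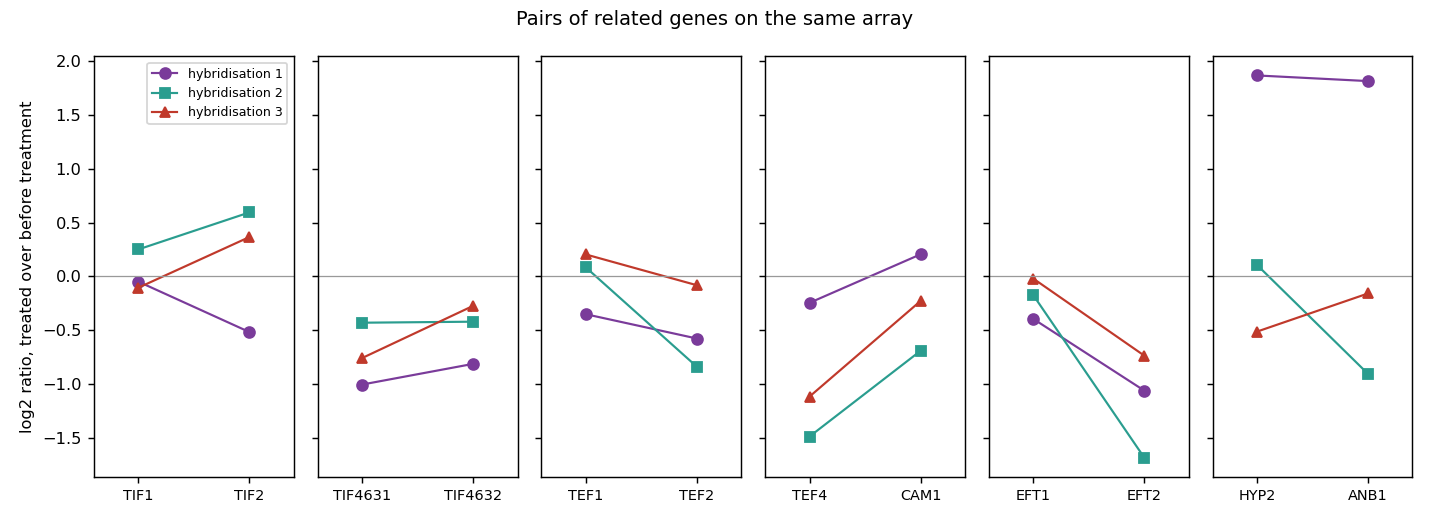
Log2 ratios (y axis) of 6 pairs of related genes, with a line for each hybridisation joining the genes of a pair read on the same array. EFT2 lies below EFT1 and TEF4 below CAM1 in all 3 hybridisations, while HYP2 and ANB1 are both above 1.8 in hybridisation 1 only.

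The factors differed from other genes in how they were read. Per the labels, the low power scan was made to recover spots brighter than the scanner's range. High power values were missing for 5, 28 and 15 of the 38 members in hybridisations 1, 2 and 3 (13.2%, 73.7% and 39.5%), against 1.06%, 13.6% and 9.86% of the 5475 other named features. For elongation genes the missing share was 40%, 90% and 60%, and for initiation genes 4%, 68% and 32%. TIF2, TEF1, TEF2, EFT2 and YEF3 had no high power value on any array, so that each of their ratios came from low power scans. EFT1, by contrast, had a high power value on all 3 arrays and lacked the low power value of hybridisation 1, as did TIF4632 and GCD6. Where a member had both scans of an array (63 cases), they differed by a median of 0.13 on the log2 scale. The part of these missing scans in the wider spread of elongation genes was not tested.

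The 3 arrays did not agree equally well. Across the 38 genes, Pearson's r was 0.72 between hybridisations 2 and 3, 0.32 between 1 and 2 and 0.38 between 1 and 3, where all 5349 genes gave 0.84, 0.56 and 0.56. These are descriptions across genes read on shared arrays, and genes are not independent replicates. The lowest ratio of a gene lay in hybridisation 1, 2 and 3 for 17, 12 and 9 of the 38 genes. The highest lay there for 12, 13 and 13.

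Other genes of the translation machinery were taken from lists written from general knowledge of yeast. Of 24 measured accessory factors and regulators of translation, 10 fell (41.7%, where 11.9% of all genes fell) and 0 rose by limma. Of all genes, 9.14% rose. At an unadjusted p under 0.05, 13 were lower and 0 higher, and the median of gene means was -0.64. The largest falls were those of DED1 (-1.39 ± 0.41), the helicase that helps scanning, NEW1 (-1.25 ± 0.26), an ATPase related to eEF3, TPA1 (-1.08 ± 0.25), which binds the release factors, and DOM34 (-0.97 ± 0.45), which rescues stalled ribosomes. The GTPase RBG2 (-0.95 ± 0.21) and YIH1 (-0.83 ± 0.14), an inhibitor of Gcn2 activation, fell as well. GCN20 (-0.78 ± 0.59), an activator of Gcn2, and GCN4 (-0.68 ± 0.41), the transcription factor whose translation the eIF2 pathway controls, did not pass. Without hybridisation 1, 2 or 3, the number that fell was 14, 5 and 0 by limma, with 11 at an unadjusted p under 0.05 in the last. Of all genes, 21.9%, 7.35% and 0% fell in these settings.

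A further list held the enzymes that add diphthamide, hypusine and methyl groups to translation factors, with those that make spermidine, the source of hypusine. Of 19 measured, 6 fell (31.6%, where 11.9% of all genes fell) and 0 rose by limma. At an unadjusted p under 0.05, 8 were lower and 0 higher, and the median was -0.48. DPH2 (-1.51 ± 0.20) and DPH1 (-0.98 ± 0.22) fell, which begin the synthesis of diphthamide, the modified residue of eEF2. LIA1 (-1.39 ± 0.17), the hydroxylase that completes hypusine on eIF5A, fell, while DYS1, which makes the first step, had -0.37 ± 0.19 and did not pass. The methyltransferases EFM4 (-1.35 ± 0.33), EFM2 (-1.21 ± 0.69) and EFM1 (-0.70 ± 0.24) fell too. The number that fell was 10, 5 and 0 by limma without hybridisation 1, 2 or 3, with 5 at an unadjusted p under 0.05 in the last. The shares of all genes that fell there were 21.9%, 7.35% and 0%. DPH2, LIA1, EFM4 and EFM2 each had a mean below that of every member except RLI1.

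Aminoacyl-tRNA synthetases of the cytosol, which load the tRNAs that eEF1A delivers, had a lower median than the factors. Of 20 measured, 11 fell (55%, where 11.9% of all genes fell) and 0 rose by limma. At an unadjusted p under 0.05, 16 were lower and 0 higher. The median was -0.88, against -0.48 for the 38 factors. YHR020W (-1.51 ± 0.47), THS1 (-1.40 ± 0.34), CDC60 (-1.32 ± 0.68) and DED81 (-1.28 ± 0.36) were the lowest. Of 121 cytosolic ribosomal protein genes, 35 fell (28.9%) and 0 rose by limma (59 lower and 0 higher at an unadjusted p under 0.05), with a median of -0.52, close to that of the factors. Without hybridisation 3, 0 of either group fell by limma, with 12 synthetases and 40 ribosomal protein genes at an unadjusted p under 0.05. Without hybridisation 1, 79 ribosomal protein genes fell, and without hybridisation 2, 23 did, where 21.9% and 7.35% of all genes fell. The differences between these groups were not tested.

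**Figure D5:**
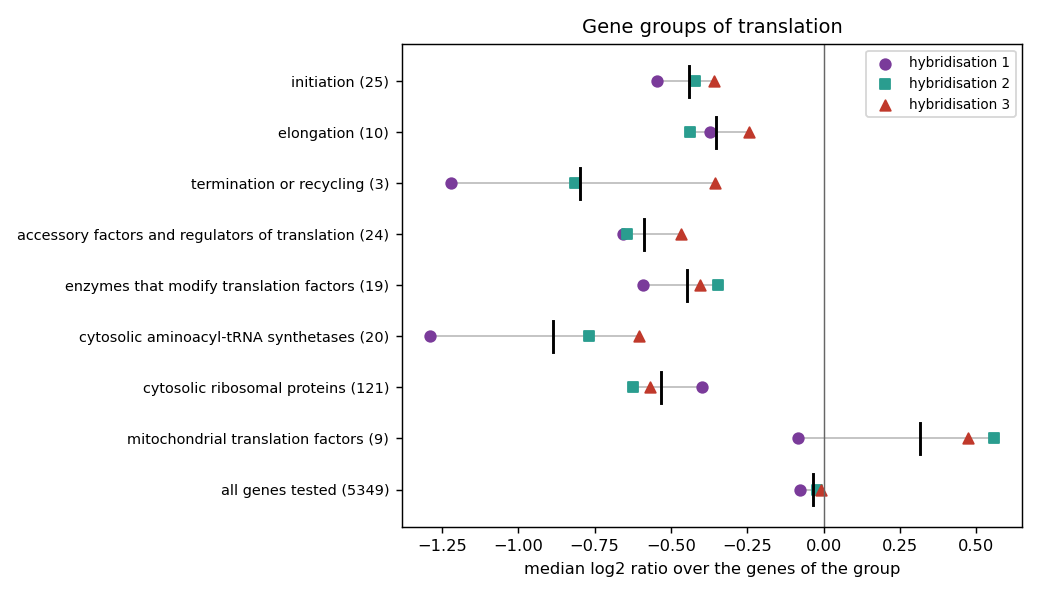
Median log2 ratio over the genes of each group (x axis) in each hybridisation (symbols) with the mean of the 3 medians (black bar), the number of genes in brackets. The 3 roles of translation factors, their accessory and modifying proteins, synthetases and ribosomal proteins lie below 0 on each array, while the mitochondrial translation factors lie at -0.08, 0.56 and 0.47.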

How the data were processed

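The deposited values were used as log2 ratios of Cy5 over Cy3, which the authors had put through LOWESS using spots of flag 0, per the labels. The sources used here name no scanner, spot software or background correction, and the authors' merged column was not used. Of 6912 features, 5513 had 1 gene name in the platform annotation, 0 several and 1399 none, and 5508 were matched to a gene table of assembly R64 by gene ID. The 2 scans of a hybridisation were averaged, then the features of a gene. Genes with a value in all 3 hybridisations (5349, with 16 left out) entered an intercept-only model (lmFit and eBayes of limma 3.58.1, R 4.3.3) that tests the mean against 0, two-sided. The procedure was tested on simulated data with independent noise for each gene and no effect shared by an array. That test therefore does not bear on differences between whole arrays. No intensities were used, so precision is limited by the 3 arrays. Centring of ID blocks took the first 3 digits of the feature ID. All 38 members are named whatever their values, and from 5 lists up to 6 genes past the threshold and 3 others by size of mean. DYS1 was added after its values were seen. Members and lists were chosen with earlier results of these data known. No sequences or coordinates are given, since no sequence or genome was used here.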

Additional observations from a re-analysis of the deposited data

How the results depend on the processing

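Of the 38 genes, 10 fell with all scans and arrays, against 11.9% of all genes. Some settings measured fewer members. With high power scans only, 3 of 10 fell, against 11.2% of all genes. With features read in all 6 scans, 3 of 7 fell, against 9.54%. When the low power scan of hybridisation 2 was left out, 4 of 10 fell, against 10.6%. With scan pairs within 0.5, 6 of 34 fell, against 12.1%. With low power scans only, 7 of 35 fell, against 12.1%, and 5 of these were among the 10. With all 38 measured, 6 fell after centring of ID blocks (8.64% of all genes) and 3 with a minimum fold of 1.2 (5.31%). Centring each array on its median gave 7 (11%), scaling between arrays 13 (15.3%) and quantile normalisation 12 (15%). With hybridisation as a random block, where scans entered separately, 14 fell (17.5%) and 1 rose, against 803 of 5349 genes. Leaving out a hybridisation gave 0 to 22 members lower, 0 to 1 higher and 1 to 2281 of all genes called. Over all genes, 1125 were called, against 544 with features read in all 6 scans, 689 with scan pairs within 0.5, 1741 with hybridisation as a random block and 514 with a minimum fold of 1.2.

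The median of elongation genes was -0.46 with low power scans only (9 of 10 genes) and -0.23 after centring of ID blocks. With high power scans only, and when the low power scan of hybridisation 2 was left out, EFT1 was the 1 elongation gene measured, at -0.029 and -0.062, against 8 initiation genes. Initiation minus elongation was -0.49 in each of these, which sets the 8 against EFT1 and is no shift of the elongation group. In the second of them the median of initiation genes was -0.55. After centring of ID blocks, TIF4631 minus TIF4632 was -0.83 and TEF4 minus CAM1 was -0.43. ANB1, at 0.25 with all arrays, reversed to -0.53 without hybridisation 1 and reached 0.83 without hybridisation 2. Fewer members in the scan settings follow from how they were built, and the cause of the other changes was not tested.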

Other observations

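Translation factors of the mitochondrion were measured for 9 genes, of which 6 had a positive and 3 a negative mean. Of these, the elongation factor GUF1 (0.65 ± 0.06) and the recycling factor RRF1 (0.73 ± 0.36) rose and 0 fell by limma. That is 22.2% higher, where 9.14% of all genes rose and 11.9% fell. At an unadjusted p under 0.05 there were 5 higher and 0 lower. The initiation factor IFM1 had 1.89, 0.56 and 0.47 in hybridisations 1, 2 and 3, and the elongation factor TUF1 had -0.08, 1.18 and 1.24, and neither passed. The calls for GUF1 and RRF1 ended without hybridisation 2 (adjusted p = 0.211 and 0.119) and without hybridisation 3 (0.206 and 0.152). Without hybridisation 1, 6 rose, where 1111 of all 5349 genes rose. The list's median was -0.08, 0.56 and 0.47 in hybridisations 1, 2 and 3, and in hybridisation 1 the median of all genes was also -0.08. The difference from the cytosolic factors was not tested.

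The EFT1 and EFT2 features gave different ratios on every array although the genes encode the same protein. EFT2 had no high power value on any array, while EFT1 had a high power value on all 3 and no low power value in hybridisation 1. In hybridisation 2 the scans of EFT1 differed by 0.81, the largest gap between scans among the 38 genes, with 0.23 at high and -0.58 at low power. No spot intensities were used here, so the brightness of these spots was not examined.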
